A study of Mus musculus with 12 samples.

Results

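The 10 genes described here build, coat, empty and fill the neutral lipid store of a fibroblast: Plin2, Dgat1, Dgat2, Pnpla2, G0s2, Lipe, Lpl, Cd36, Fabp4 and Pparg. They were chosen by name, with earlier results of these data known. The array's annotation names 18 probe sets for them, and each gene was read from whichever of its probe sets was brightest on average. All 10 passed the filter on low values and were tested among 11073 genes, of 17097 genes that the annotation names on this array.

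The cells were interstitial fibroblasts of mouse lung, sorted after a dispase digest by GFP reported from Pdgfra, the gene of PDGF receptor alpha. All groups carried that reporter, and lungs were taken on day 5 after surgery. There were 6 groups of 2 arrays. Bright PNX-dnFGFR and dim PNX-dnFGFR cells came from animals expressing dominant-negative FGF receptor 2 after partial pneumonectomy, an operation that takes away some of the lung and after which the rest regrows. Bright PNX and dim PNX cells came from animals with a partial pneumonectomy and no such receptor named in their labels. Bright SHAM and dim SHAM cells came from animals that had the operation without lung removal. The promoter that drives the dominant-negative receptor, the age and strain of the animals and whether a sample is 1 animal or a pool are not stated in the labels. Each sample was 2000 cells whose cDNA was amplified over 25 cycles, and the deposited values are log2 signals. The replicates are labelled biological, bright and dim samples may share animals, and the p-values measure the spread between these samples only. In a sorted population, fewer cells with a transcript and less of it per cell cannot be told apart.

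The gate names were checked first. Pdgfra was at 4.84 to 5.54 on the 6 arrays labelled bright and at 6.66 to 7.13 on the 6 labelled dim, so its transcript ran against the labels of a GFP sort. These values are from a single probe set, and the bright ones lay on both sides of the filter at log2 5.101. Bright and dim are used below as the labels give them. All 10 fibroblast markers differed between the gates by limma, 7 higher and 3 lower in bright cells (6 to 7 higher and 2 to 3 lower with 1 array left out). Of all tested genes, 47.8% were called in the same comparison, the gate difference averaged over the 3 conditions (28.5% higher and 19.3% lower). Col1a1, a chain of type I collagen, was at 12.29 to 12.46 on bright and 11.82 to 12.12 on dim arrays. Col3a1, of type III collagen, was at 12.23 to 12.57 on bright and 12.03 to 12.26 on dim arrays. Fibronectin's Fn1 was at 11.62 to 12.12 on bright and 12.04 to 12.42 on dim arrays. Their differences passed narrowly by limma, at 0.22 ± 0.08 for Col3a1 (adjusted p = 0.047) and -0.30 ± 0.11 for Fn1 (0.042). Both calls were lost with no filter and when most of the 12 arrays were left out 1 at a time. Dcn, the gene of the proteoglycan decorin, was far apart, at 11.97 to 12.21 on bright and 5.72 to 8.48 on dim arrays (5.05 ± 0.49 log2). Array medians were 5.06 to 5.13, no signal-over-background call comes with the values, and the number of arrays limits the precision.

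Lipofibroblasts are interstitial cells of the alveolar wall that hold droplets of triglyceride, close to alveolar type II cells, and are known for handing on lipid for surfactant. Fatty acids released from circulating lipoproteins by lipoprotein lipase enter through carriers such as CD36, are bound by fatty acid binding proteins in the cytosol, and are esterified to triglyceride by the DGAT enzymes. Perilipin 2 coats the droplet. Adipose triglyceride lipase (Pnpla2) and hormone-sensitive lipase (Lipe) break the store down again, and G0S2 is a protein inhibitor of the first of these lipases. PPAR gamma is the nuclear receptor known to drive the adipogenic gene programme, and it binds with a retinoid X receptor to a direct repeat of a hexamer.

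Promoter sequence is shown for Plin2, G0s2 and Pparg, which were all lower on the bright arrays and stand for coat, lipase inhibitor and regulator. The sequences are RefSeq's for build GRCm38.p6 and cover the 250 bases before a start site, 5′ to 3′ on the strand of the gene. Of the 10 genes, 6 had an entry, with 9 windows. Dgat1, Dgat2, Lpl and Fabp4 are named only. Capitals mark matches to any of 5 motifs on either strand. The direct repeat of the receptor was searched as AGGTCANAGGTCA. Its single hexamer was searched as AGGTCA, which lies inside that repeat, so these motifs overlap. The CCAAT box was searched by its own letters. The GC box was searched as GGGCGG. The TATA motif was searched as TATAAA.
Plin2, chr4:86670060-86670309, minus strand: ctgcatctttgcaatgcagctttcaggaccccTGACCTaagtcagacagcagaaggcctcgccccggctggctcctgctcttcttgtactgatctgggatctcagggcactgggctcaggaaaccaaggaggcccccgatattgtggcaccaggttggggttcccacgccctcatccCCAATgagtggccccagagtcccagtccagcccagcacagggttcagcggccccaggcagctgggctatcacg
G0s2, chr1:193273189-193273438, minus strand: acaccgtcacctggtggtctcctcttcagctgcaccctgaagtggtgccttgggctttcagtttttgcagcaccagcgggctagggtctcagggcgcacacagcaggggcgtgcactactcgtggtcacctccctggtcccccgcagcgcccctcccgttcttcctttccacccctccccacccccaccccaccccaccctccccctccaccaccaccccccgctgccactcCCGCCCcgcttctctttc
Pparg, upstream start, chr6:115360894-115361143, plus strand: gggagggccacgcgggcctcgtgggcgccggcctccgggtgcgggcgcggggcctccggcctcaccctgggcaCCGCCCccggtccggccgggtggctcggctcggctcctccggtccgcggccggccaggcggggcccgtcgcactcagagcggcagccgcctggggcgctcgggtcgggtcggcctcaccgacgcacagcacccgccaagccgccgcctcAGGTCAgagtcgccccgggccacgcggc
Pparg, downstream start, chr6:115421816-115422065, plus strand: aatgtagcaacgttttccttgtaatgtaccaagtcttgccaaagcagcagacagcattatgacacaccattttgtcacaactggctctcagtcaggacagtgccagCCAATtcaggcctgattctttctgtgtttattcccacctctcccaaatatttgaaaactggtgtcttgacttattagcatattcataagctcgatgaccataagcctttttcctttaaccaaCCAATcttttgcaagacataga

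The Plin2 window holds the hexamer on the minus strand 218 bases before the start and a CCAAT box at 73 bases. The G0s2 window holds 1 GC box on the minus strand, 18 bases before the start. The 2 Pparg windows shown differ: the upstream one has a GC box and the hexamer, and the downstream one has 2 CCAAT boxes. Over the 9 windows of these genes, 4 hold the hexamer, 4 a CCAAT box, 6 a GC box, 1 the TATA motif and 0 the direct repeat. The windows belong to 6 genes, and Pparg and Lipe have more than 1 each. Pparg has more than 1 of the windows with the hexamer, with a CCAAT box and with a GC box, so these are not counts of separate genes. Among all 32851 promoter windows of this length, 14% hold the hexamer, 33.8% a CCAAT box, 32.7% a GC box, 12.4% the TATA motif and 0.0335% the direct repeat. These are matches of letters in a short window, and no binding was measured.

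Bright cells were compared with dim cells in these genes by averaging the gate difference of the 3 conditions. Of the 10 genes, 7 were lower and 2 higher in bright cells at an adjusted p below 0.05 by limma, where 19.3% of all tested genes were lower and 28.5% higher (47.8% in either direction). The lower ones were Plin2, Dgat1, Dgat2, G0s2, Pnpla2, Lipe and Pparg, and the higher ones were Lpl and Fabp4. Cd36 did not pass. The median log2 difference of the 10 genes was -0.99, against 0.05 over all tested genes. For 8 of the 10 the 6 bright arrays did not overlap the 6 dim arrays, which held for 23.5% of all tested genes. The 2 that overlapped, Pnpla2 and Cd36, lay near the filter's log2 5.101, the median of all values on these arrays.

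**Figure D1:**
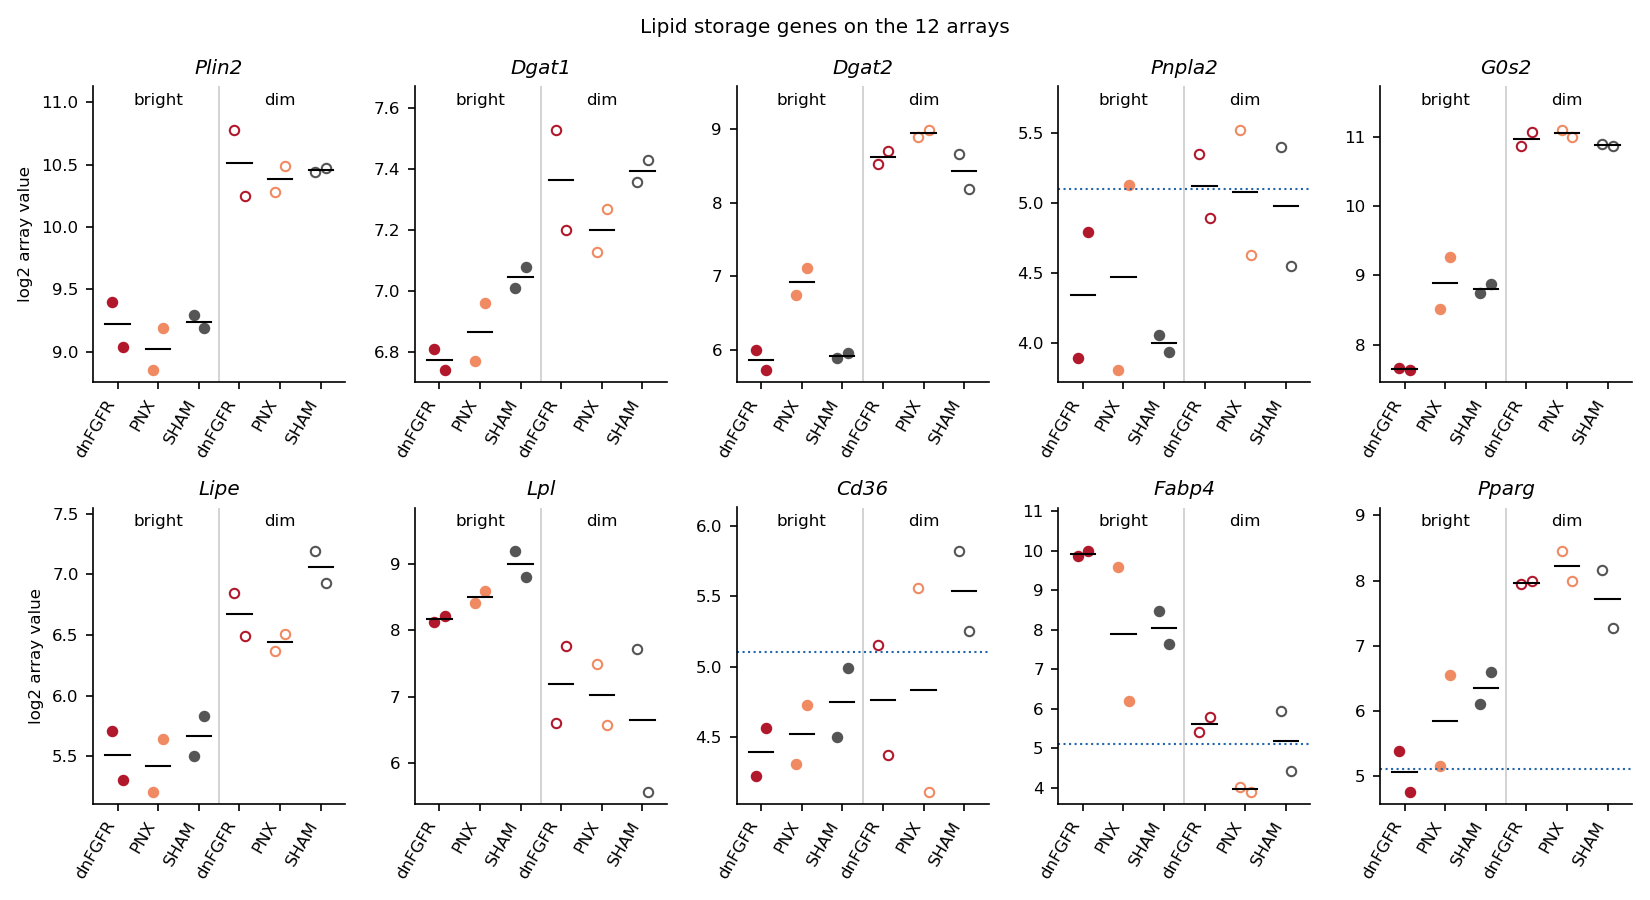
Log2 array value of each of the 10 genes on the 12 arrays, by group on the x axis (filled points bright, open points dim; dnFGFR stands for PNX-dnFGFR); black lines are means of 2 arrays and the dotted line is the filter at log2 5.101. Plin2, Dgat1, Dgat2, G0s2, Lipe and Pparg sit lower on all 6 bright arrays, Lpl and Fabp4 sit higher, and each panel has its own scale that does not start at 0.

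Plin2, which encodes the droplet coat protein perilipin 2, had 9.40 and 9.04 log2 in bright PNX-dnFGFR, 8.85 and 9.19 in bright PNX and 9.29 and 9.19 in bright SHAM cells. In dim cells it had 10.78 and 10.25 in PNX-dnFGFR, 10.28 and 10.49 in PNX and 10.44 and 10.47 in SHAM. Every bright array was below every dim array, and within a gate the 3 conditions overlapped. The difference was -1.29 ± 0.12 log2 (SE, n = 6 arrays per gate), a 2.45-fold lower level in bright cells (adjusted p = 2.8e-05). It was -1.30 in PNX-dnFGFR, -1.36 in PNX and -1.21 in SHAM (± 0.21 each), with adjusted p-values by limma of 0.0015, 0.0020 and 0.0038.

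The enzymes of the last step of triglyceride synthesis were both lower in bright cells, to different extents. Dgat2 had 6.0 and 5.72 log2 in bright PNX-dnFGFR, 6.74 and 7.11 in bright PNX and 5.88 and 5.95 in bright SHAM cells. In dim cells Dgat2 had 8.53 and 8.70 in PNX-dnFGFR, 8.89 and 8.99 in PNX and 8.66 and 8.19 in SHAM. The gates were far apart, and within each gate both PNX arrays lay above the arrays of the other conditions. The gate difference of Dgat2 was -2.43 ± 0.11 log2, 5.38-fold lower in bright cells (adjusted p = 4.2e-07), and its second probe set gave -2.17. It was -2.76 in PNX-dnFGFR, -2.02 in PNX and -2.51 in SHAM (± 0.20 each, adjusted p-values of at most 0.00016). Dgat1, the other acyltransferase of this step, ran from 6.74 to 7.08 on bright arrays, with a median of 6.89, and from 7.13 to 7.53 on dim arrays, with a median of 7.31. Its difference was -0.42 ± 0.09 log2 (1.34-fold, adjusted p = 0.0030), and the same size came from its second probe set. Among single conditions Dgat1 passed in PNX-dnFGFR at -0.59 ± 0.15 (adjusted p = 0.014) and not in PNX (-0.33, adjusted p = 0.16) or SHAM (-0.35, adjusted p = 0.14). In PNX-dnFGFR the call of Dgat1 was lost without bright replicate 1 (-0.62, adjusted p = 0.053), bright replicate 2 (-0.55, 0.079) or dim replicate 1 (-0.42, 0.089), and with only the groups compared (-0.59, 0.052).

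G0s2, the inhibitor on the side of lipolysis, was lower in bright cells. G0s2 had 7.66 and 7.63 log2 in bright PNX-dnFGFR, 8.51 and 9.27 in bright PNX and 8.74 and 8.87 in bright SHAM cells. In dim cells G0s2 had 10.87 and 11.07 in PNX-dnFGFR, 11.10 and 11 in PNX and 10.90 and 10.87 in SHAM. The dim arrays were nearly level, and among bright arrays the PNX-dnFGFR pair was lowest. The gate difference of G0s2 was -2.52 ± 0.13 log2, 5.75-fold lower in bright cells (adjusted p = 5.5e-07). By condition it was -3.33 in PNX-dnFGFR, -2.16 in PNX and -2.08 in SHAM (± 0.22 each, adjusted p-values of 1.3e-05, 0.00019 and 0.00023).

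Lipe, whose product cleaves diglyceride and other esters, had 5.71 and 5.31 log2 in bright PNX-dnFGFR, 5.21 and 5.64 in bright PNX and 5.50 and 5.83 in bright SHAM cells. In dim cells Lipe had 6.85 and 6.49 in PNX-dnFGFR, 6.37 and 6.51 in PNX and 7.19 and 6.93 in SHAM. Its difference of -1.19 ± 0.13 (2.28-fold, adjusted p = 6.4e-05) had no overlap between the gates. It passed in each condition, at -1.15 in PNX-dnFGFR (adjusted p = 0.0036), -1.01 in PNX (0.012) and -1.40 in SHAM (0.0023). In PNX the call of Lipe was lost without bright replicate 1 (-0.79, adjusted p = 0.082) or dim replicate 2 (-0.94, 0.080). A second Lipe probe set was below the filter on all arrays, at 2.78 to 4.0, and averaging it in gave -0.77 over the 3 conditions (adjusted p = 0.0011) and -0.71 in SHAM, which did not pass (0.055).

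Pnpla2, the gene of adipose triglyceride lipase, was measured near the filter, above it on 1 bright and 3 dim arrays. It ran from 3.81 to 5.13 on bright arrays with a median of 4.0 and from 4.55 to 5.52 on dim arrays with a median of 5.12. Bright and dim arrays overlapped. Its difference of -0.78 ± 0.28 log2 passed narrowly (adjusted p = 0.046), and no single condition did, with adjusted p-values of 0.25 in PNX-dnFGFR, 0.45 in PNX and 0.21 in SHAM. With values below the filter set to it, the difference of Pnpla2 was -0.16 and did not pass (adjusted p = 0.21). The call was also lost without any 1 of 8 arrays, with adjusted p-values of 0.058 to 0.12 and differences of -0.56 to -0.86; the 4 arrays whose removal kept it were bright PNX replicate 2, dim PNX replicate 2, bright PNX-dnFGFR replicate 2 and dim SHAM replicate 2.

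The genes of fatty acid uptake and carriage did not move together. Lpl, the gene of lipoprotein lipase, had 8.13 and 8.21 log2 in bright PNX-dnFGFR, 8.41 and 8.59 in bright PNX and 9.19 and 8.81 in bright SHAM cells. In dim cells Lpl had 6.60 and 7.77 in PNX-dnFGFR, 7.49 and 6.57 in PNX and 7.72 and 5.57 in SHAM. Bright arrays were higher without overlap, and dim replicates of a condition lay up to 2.15 log2 apart. Its difference was 1.60 ± 0.36 (3.04-fold higher in bright cells, adjusted p = 0.0052), and a second probe set gave 1.30 (adjusted p = 0.022). Within conditions Lpl passed in SHAM at 2.35 ± 0.62 (adjusted p = 0.028), and not in PNX-dnFGFR (0.99, 0.25) or PNX (1.47, 0.14). The SHAM call of Lpl was lost without dim replicate 2 (1.28, adjusted p = 0.13), bright replicate 1 (2.17, 0.12) or bright replicate 2 (2.54, 0.081), and with only the groups compared (2.35, 0.097). The PNX value of Lpl passed at 1.47 without either dim SHAM array (adjusted p = 0.037 each) and with only the groups compared (0.049).

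Fabp4 encodes a fatty acid binding protein of adipocytes, macrophages and capillary endothelium. It had 9.86 and 9.99 log2 in bright PNX-dnFGFR, 9.58 and 6.19 in bright PNX and 8.47 and 7.63 in bright SHAM cells. In dim cells Fabp4 had 5.42 and 5.80 in PNX-dnFGFR, 4.03 and 3.90 in PNX and 5.94 and 4.43 in SHAM. All bright arrays were above all dim arrays, 3 dim arrays were below the filter, and the bright PNX replicates stood 3.40 log2 apart. The difference was 3.70 ± 0.52 (13-fold higher in bright cells, adjusted p = 0.00033), and 3.21 with values below the filter set to it (adjusted p = 0.00078). One other Fabp4 probe set gave 3.09 (adjusted p = 0.00032). The remaining one stayed at 3.0 to 4.2, below the filter on all arrays, and the mean of the 3 probe sets gave 2.32. By condition the difference of Fabp4 was 4.31 ± 0.90 in PNX-dnFGFR (adjusted p = 0.0054), 3.92 in PNX (0.015) and 2.87 in SHAM (0.053).

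The calls of Fabp4 in PNX and SHAM depended on the arrays and settings used. In PNX, the difference of Fabp4 was 2.22 without bright replicate 1 (adjusted p = 0.036), and the call was lost without dim replicate 1 (3.98, 0.064) or dim replicate 2 (3.85, 0.078). Held at the filter, the PNX value was 2.78 (adjusted p = 0.057), and with only the groups compared it did not pass (3.92, 0.081). The SHAM difference of Fabp4, 2.87, passed without bright PNX replicate 1 or replicate 2 (adjusted p = 0.0030 each), and likewise with the stricter filter (0.040), a variance trend (0.038), only the groups compared (0.034) and the replicate number as a block (0.035), always at 2.87.

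Cd36, the gene of a fatty acid translocase, was above the filter on 0 bright and 4 dim arrays, so its difference rests on values near or below the filter. It ran from 4.22 to 4.99 on bright arrays and from 4.11 to 5.82 on dim arrays, which overlapped. The difference of -0.49 ± 0.26 did not pass (adjusted p = 0.15), except without dim PNX replicate 2 (-0.74, adjusted p = 0.018). Both other Cd36 probe sets were below the filter, though 1 of them reached 5.76 on 1 array.

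Pparg, the regulator, had 5.38 and 4.76 log2 in bright PNX-dnFGFR, 5.15 and 6.55 in bright PNX and 6.10 and 6.59 in bright SHAM cells. In dim cells Pparg had 7.94 and 7.99 in PNX-dnFGFR, 8.45 and 8.0 in PNX and 8.16 and 7.28 in SHAM. The gates did not overlap, and the bright PNX replicates differed by 1.40 log2. The difference was -2.22 ± 0.26, 4.65-fold lower in bright cells (adjusted p = 0.00011). It was -2.90 in PNX-dnFGFR (adjusted p = 0.0012), -2.38 in PNX (0.0061) and -1.37 in SHAM, which did not pass (± 0.45 each, adjusted p = 0.065). The SHAM value of Pparg passed without either bright PNX array (adjusted p = 0.022 each), with the stricter filter (0.049), a variance trend (0.049) and repeated quantile normalization (-1.47, 0.044).

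By condition, 7 of the 10 genes passed in PNX-dnFGFR (1 higher in bright cells and 6 lower), where 34.4% of all tested genes were called, 21.0% higher and 13.5% lower. In PNX 6 passed (1 higher and 5 lower), where 18.4% of all genes were called, 11.4% higher and 7.07% lower. In SHAM 5 passed (1 higher and 4 lower), where 19.0% of all genes were called, 11.5% higher and 7.53% lower. Plin2, Dgat2, G0s2 and Lipe passed in each of the 3. The conditions were not shown to differ in this, since the test of the difference between gates called 0 of the 10 genes, as reported below.

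**Figure D2:**
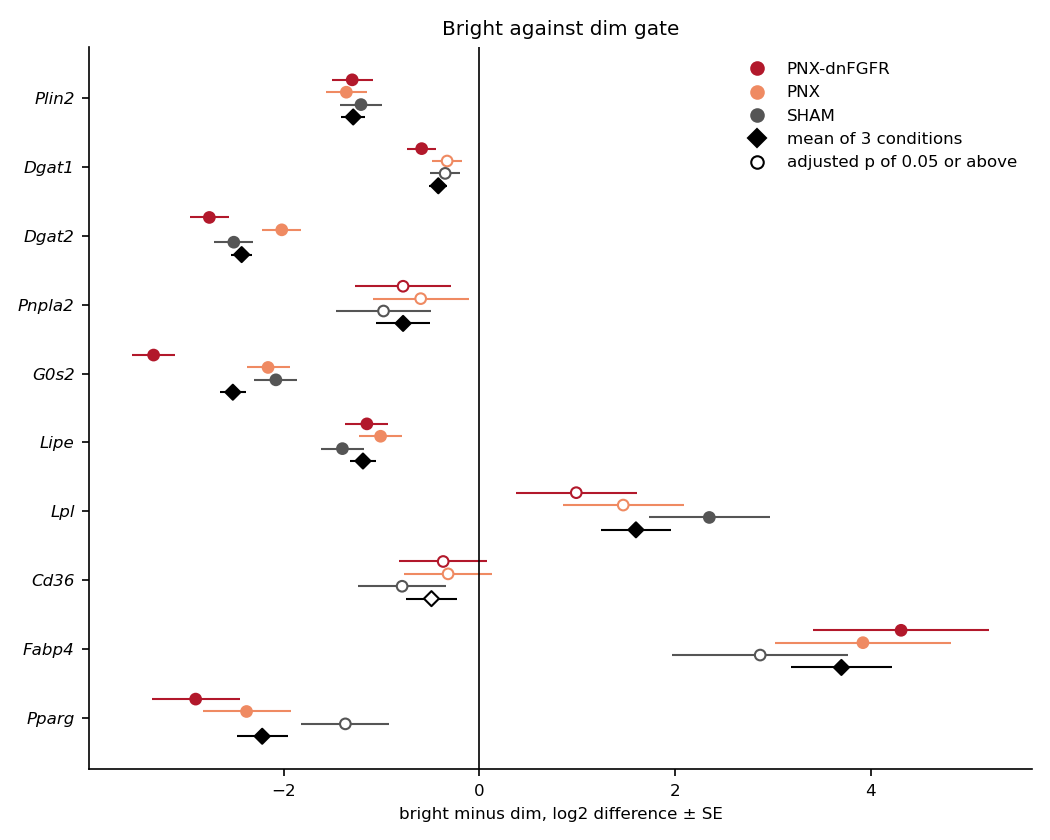
Log2 difference, bright minus dim, of each gene in PNX-dnFGFR, PNX and SHAM (n = 2 arrays per gate) and as the mean over the 3 conditions (n = 6 per gate); bars are SE from limma, and filled markers have an adjusted p below 0.05. Plin2 stays near -1.3 in each condition, G0s2 reaches -3.33 in PNX-dnFGFR, and Fabp4 and Lpl lie right of 0 with the widest bars.

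Whether the conditions differ within a gate was asked next. These comparisons share groups: the bright PNX pair, for example, enters both PNX-dnFGFR against PNX and PNX against SHAM. PNX-dnFGFR and SHAM differ in both the operation and the receptor named in the labels. No sham group with the receptor is among the samples, so the operation and the receptor cannot be told apart in PNX-dnFGFR against SHAM. For PNX-dnFGFR against SHAM in bright cells, 1 of the 10 genes passed, where 5.20% of all tested genes were called and 2.60% were lower. That gene was G0s2, at 7.66 and 7.63 log2 in bright PNX-dnFGFR cells, against 8.74 and 8.87 in bright SHAM cells. The difference was -1.16 ± 0.22 log2 (2.23-fold lower, n = 2 arrays per group, adjusted p = 0.024). Leaving out any 1 of these 4 arrays ended the call of G0s2: the values were -1.18 (adjusted p = 0.10) with PNX-dnFGFR replicate 1 left out and -1.14 (0.11) with its replicate 2 left out. They were -1.23 (0.075) with SHAM replicate 1 left out and -1.09 (0.16) with SHAM replicate 2 left out. In the order of levels G0s2 ran from dim PNX (11.05) over dim PNX-dnFGFR (10.97) and dim SHAM (10.89) to bright PNX (8.89), bright SHAM (8.81) and bright PNX-dnFGFR (7.65). The dim neighbours differed by no more than 0.16 ± 0.22 log2, and bright PNX and bright SHAM by 0.08 ± 0.22.

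In the same comparison Pparg had -1.28 ± 0.45 (adjusted p = 0.13), with 5.38 and 4.76 in bright PNX-dnFGFR cells below 6.10 and 6.59 in bright SHAM cells. Fabp4 had 1.87 ± 0.90 (adjusted p = 0.25), with 9.86 and 9.99 above 8.47 and 7.63. Neither passed, although the pairs did not overlap. Fabp4 passed without either bright PNX array (1.87, adjusted p = 0.041 each) and with only the groups compared (0.040). Plin2, at -0.02 ± 0.21, and Dgat2, at -0.06 ± 0.20, lay close to 0. In dim cells 0 of the 10 genes passed between PNX-dnFGFR and SHAM (0.0181% of all genes called by limma; 0 of the 10 and 9.52% of all genes at an unadjusted p below 0.05). As the mean over both gates 0 passed as well (2.0% of all genes called by limma, 1 of the 10 and 21.6% of all genes at an unadjusted p below 0.05), with G0s2 at -0.54 ± 0.15 (adjusted p = 0.099). That mean passed for G0s2 without either bright PNX array (-0.54, adjusted p = 0.026 each) and with only the groups compared (0.044).

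For PNX-dnFGFR against PNX, 0 of the 10 genes passed in bright cells (0.00903% of all genes called by limma; 3 of the 10 and 12.6% of all genes at an unadjusted p below 0.05). The largest shifts among the 10 genes were those of Fabp4, G0s2 and Dgat2. G0s2 had -1.24 ± 0.22 (adjusted p = 0.077), with 7.66 and 7.63 in bright PNX-dnFGFR cells, against 8.51 and 9.27 in bright PNX cells. Dgat2 had -1.07 ± 0.20 (adjusted p = 0.083), with 6.0 and 5.72 against 6.74 and 7.11. Fabp4 had 2.04 ± 0.90 (adjusted p = 0.39), with 9.86 and 9.99 against 9.58 and 6.19. Without bright PNX replicate 1 these 3 passed, at -1.62 for G0s2 (adjusted p = 0.0053), -1.26 for Dgat2 (0.027) and 3.74 for Fabp4 (0.017). G0s2 also passed with the stricter filter (0.050, just under the threshold), a variance trend (0.040) and values held at the filter (0.043), and Dgat2 with values held at the filter (0.048). In dim cells 0 of the 10 passed (0.00% of all genes called by limma; 0 of the 10 and 7.79% of all genes unadjusted), and as the mean over both gates 0 passed (0.00% called; 3 of the 10 and 12.5% of all genes unadjusted). Without bright PNX replicate 1 the mean passed for G0s2 (-0.85, adjusted p = 0.025), Dgat2 (-0.79, 0.048) and Fabp4 (2.69, 0.026).

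For PNX against SHAM, 0 of the 10 genes passed as the mean over both gates (0.144% of all genes called by limma; 2 of the 10 and 16.1% of all genes at an unadjusted p below 0.05). In bright cells 0 passed (0.00903% called; 1 of the 10 and 8.24% of all genes unadjusted), and in dim cells 0 passed (0.0452% called; 2 of the 10 and 12.2% of all genes unadjusted). Dgat2 had the largest mean shift over both gates among the 10 genes. It had 6.74 and 7.11 in bright PNX cells, against 5.88 and 5.95 in bright SHAM cells, a difference of 1.01 ± 0.20 (adjusted p = 0.30). In dim cells it had 8.89 and 8.99 in PNX, against 8.66 and 8.19 in SHAM, a difference of 0.52 ± 0.20 (adjusted p = 0.34). The pairs did not overlap in either gate, and the mean over both was 0.77 ± 0.14 (adjusted p = 0.083). In the mean of both Dgat2 probe sets it was 0.79 and passed (adjusted p = 0.039). Lipe in dim cells had -0.63 ± 0.22 (adjusted p = 0.31), with 6.37 and 6.51 in PNX, against 7.19 and 6.93 in SHAM. Plin2 had -0.22 ± 0.21 in bright cells (adjusted p = 0.82) and -0.07 ± 0.21 in dim cells (adjusted p = 0.93).

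Whether a condition acted differently in the gates was tested as a difference of differences, bright minus dim. It called 0 of the 10 genes for PNX-dnFGFR against SHAM (0.126% of all genes by limma; 2 of the 10 and 12.7% of all genes at an unadjusted p below 0.05). It also called 0 for PNX-dnFGFR against PNX (0.00% called; 2 of the 10 and 8.21% unadjusted) and for PNX against SHAM (0.00% called; 0 of the 10 and 4.47% unadjusted). G0s2 had -1.25 ± 0.31 for PNX-dnFGFR against SHAM (adjusted p = 0.15) and -1.17 ± 0.31 for PNX-dnFGFR against PNX (0.48). The first passed for G0s2 without either bright PNX array (-1.25, adjusted p = 0.030 each), and the second without bright PNX replicate 1 (-1.55, 0.025). Pparg had -1.53 ± 0.64 for PNX-dnFGFR against SHAM (adjusted p = 0.37).

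**Figure D3:**
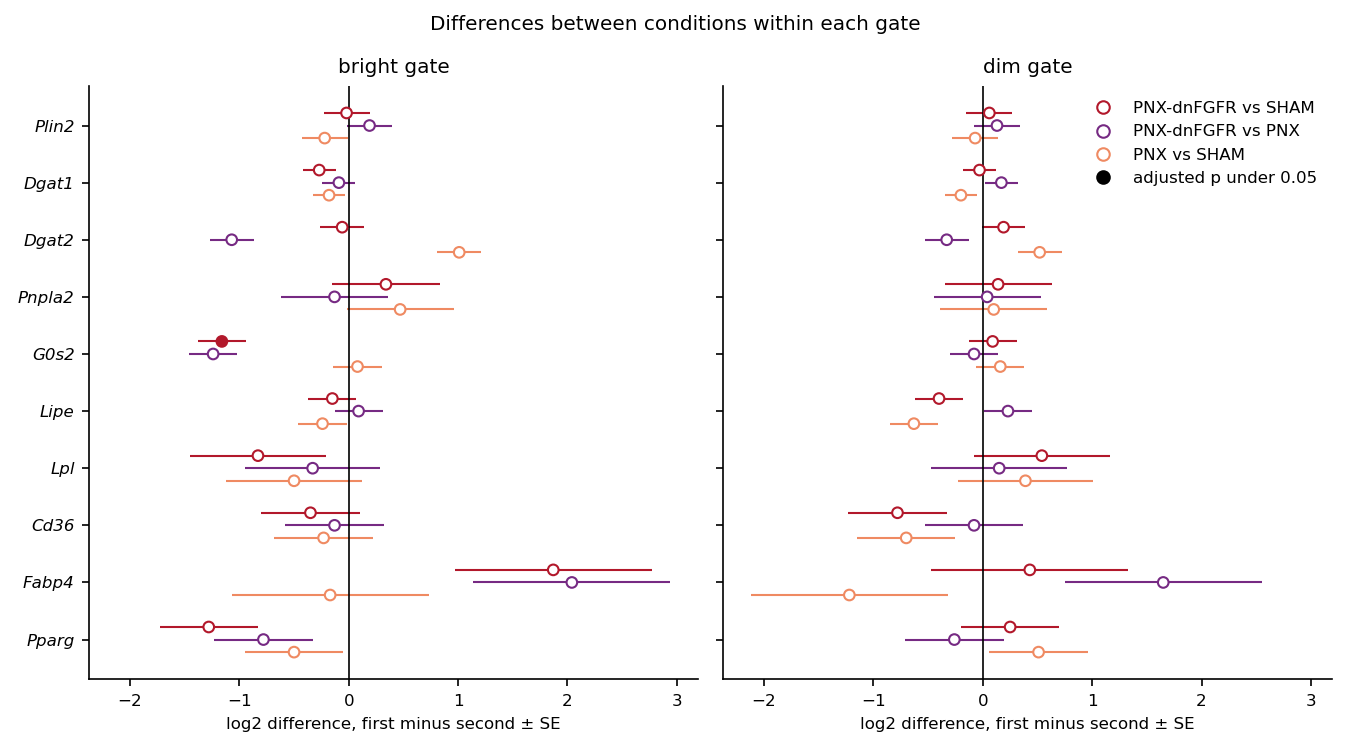
Log2 differences between conditions for each gene within the bright gate (left) and the dim gate (right), first condition minus second, with SE from limma (n = 2 arrays per group); filled points have an adjusted p below 0.05. Only G0s2 in bright PNX-dnFGFR against bright SHAM cells is filled, at -1.16, and Dgat2 lies right of 0 for PNX against SHAM in both gates.

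The other genes of the pathway were read from 5 lists in the mean difference between the gates, where 28.5% of all tested genes were higher, 19.3% lower and 47.8% called in either direction, around a median of 0.05. Of 11 tested droplet coat and droplet proteins, 1 was higher and 2 lower in bright cells, with a median of -0.10, a smaller share than over all genes. The higher one was Cav1 at 2.44 ± 0.16, the gene of caveolin 1, which also builds caveolae of the cell surface. Fitm2, which helps droplets to form, had -1.44 ± 0.10, and the droplet-associated dehydrogenase gene Hsd17b11 had -0.40. The count of higher genes was 2 without dim PNX-dnFGFR replicate 1 or bright PNX-dnFGFR replicate 2 and 4 without dim SHAM replicate 1.

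Of 9 tested genes of triglyceride synthesis upstream of the DGAT step, 5 were lower in bright cells and 0 higher (1 without bright PNX replicate 1), with a median of -0.66, where 19.3% of all genes were lower. The 3 lipin genes, whose products make diglyceride from phosphatidate, were all lower, Lpin1 and Lpin2 at -1.46 (± 0.14 and ± 0.11) and Lpin3 at -1.42 ± 0.23. Agpat4 had -0.66 ± 0.08, and Gpam, the mitochondrial glycerol phosphate acyltransferase, had -0.73 ± 0.14. The other 4 did not pass and lay between -0.19 and 0.19. All passing members of this list lay lower on each of the 6 bright arrays than on each of the 6 dim arrays, a lack of overlap in either direction that 23.5% of all tested genes had, as for Gpam, at 8.05 to 8.51 on bright and 8.61 to 9.53 on dim arrays.

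Of 6 tested genes of lipolysis and lysosomal lipid breakdown, 4 were lower and 1 higher (2 without bright SHAM replicate 1), with a median of -0.88, where 19.3% of all genes were lower. Ces1d, a carboxylesterase with triglyceride hydrolase activity, had -3.93 ± 0.51, at 4.71 to 8.18 on bright and 9.88 to 10.57 on dim arrays. The monoglyceride lipase gene Mgll had -1.30 ± 0.12 and the lysosomal acid lipase gene Lipa had -0.52 ± 0.08. Abhd6, which encodes another monoacylglycerol lipase, was higher at 1.71 ± 0.16.

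In fatty acid uptake, activation and carriage 4 of 16 tested genes were higher and 4 lower, with a median of 0.10. That share was near the 47.8% of all genes called, and the median near that of all genes. Slc27a3, of the fatty acid transport protein family, had -1.87 ± 0.14, and Fabp3, the heart fatty acid binding protein, had -1.53 ± 0.15. Acsl4, an acyl-CoA synthetase with a preference for arachidonate, had 0.98 ± 0.15, and Got2, the mitochondrial aspartate aminotransferase that is also called a plasma membrane fatty acid binding protein, had 0.48 ± 0.07. Fabp5, which did not pass, had 1.09 ± 0.41.

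Among 20 tested PPARG partners and adipogenic regulators, 10 were lower and 5 higher in bright cells, with a median of -0.36, where 19.3% of all genes were lower and 28.5% higher. Tcf21, a transcription factor of lung lipofibroblasts, had -2.71 ± 0.17. Klf15 had -1.93 ± 0.23, and Nr1h3, the oxysterol receptor LXR alpha, had -1.53 ± 0.12. Ebf1 was higher at 2.90 ± 0.15, and so was Zfp423, a factor of committed preadipocytes, at 1.89 ± 0.25.

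**Figure D4:**
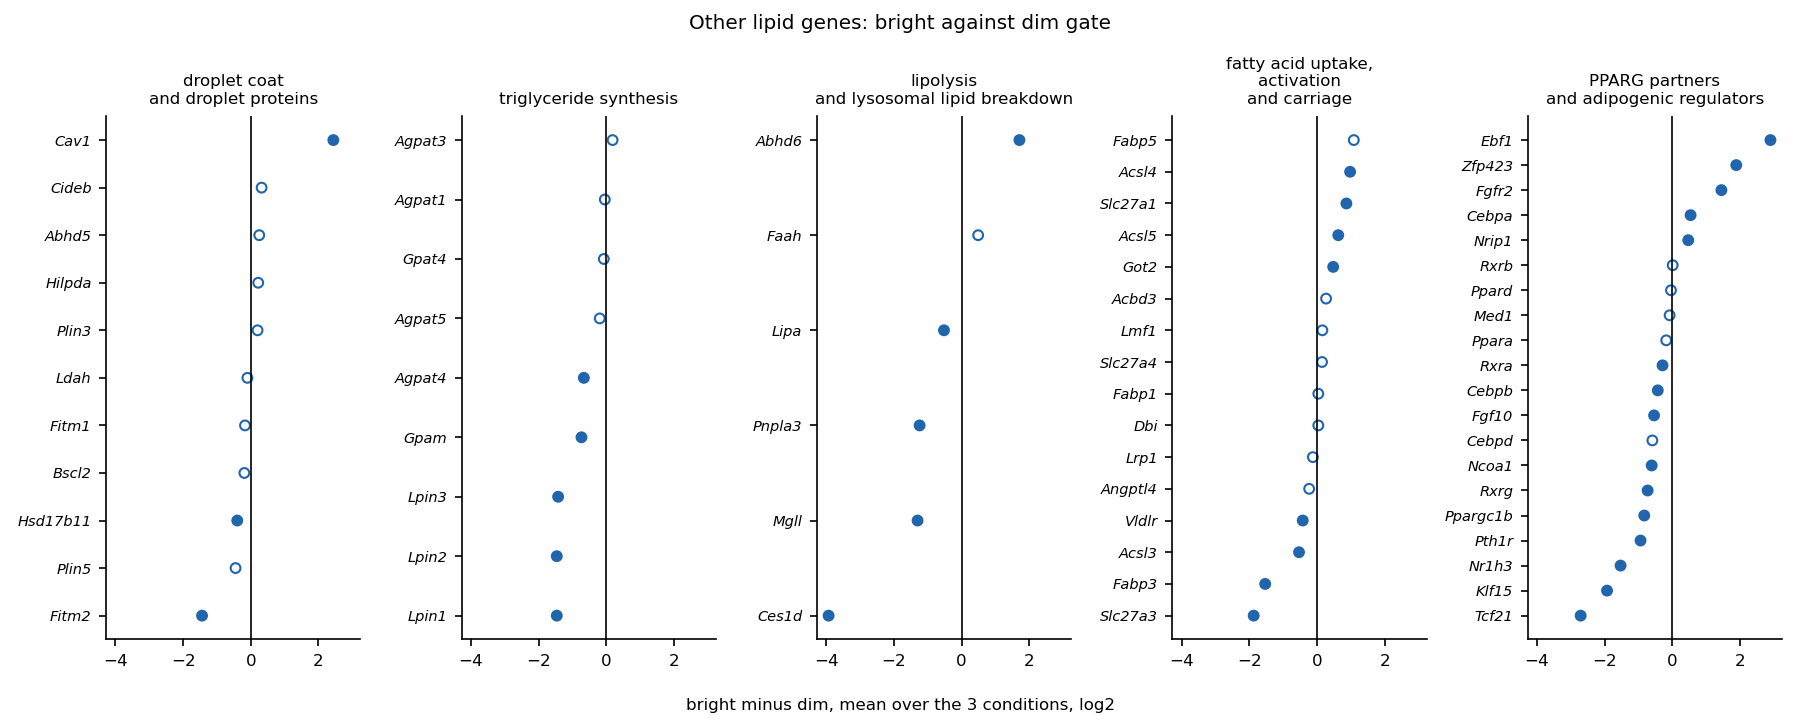
Log2 difference, bright minus dim as the mean over the 3 conditions, of each tested gene of 5 lists around the 10 genes; filled points have an adjusted p below 0.05 by limma. Triglyceride synthesis has 5 filled points left of 0 and none right of it, while uptake, activation and carriage has 4 on each side.

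Between conditions, 4 of the 62 tested genes of these 5 lists passed for PNX-dnFGFR against SHAM in bright cells. These are 6.45% of them, near the 5.20% of all tested genes. Acsl4 had 7.99 and 7.85 log2 in bright PNX-dnFGFR cells, against 6.41 and 6.19 in bright SHAM cells, a difference of 1.62 ± 0.27 (adjusted p = 0.017). Dbi, the acyl-CoA binding protein, had 9.39 and 9.28, against 8.70 and 8.67 (0.64 ± 0.16, adjusted p = 0.047). Pth1r, the receptor through which PTHrP is known to act on lipofibroblasts, had 6.82 and 6.34, against 7.92 and 7.77 (-1.26 ± 0.24, adjusted p = 0.026). Fgf10 had 7.94 and 7.19, against 8.83 and 8.77 (-1.23 ± 0.30, adjusted p = 0.049). In each of the 4 the bright PNX arrays lay between or across these pairs, as for Acsl4 at 7.49 and 6.89. Acsl4 lost its call without any 1 of the 4 arrays compared (1.51 to 1.72, adjusted p-values of 0.055 to 0.13), and so did Pth1r (-1.51 to -1.02, 0.052 to 0.15). Dbi and Fgf10 lost theirs without any 1 array other than the bright PNX pair, with adjusted p-values of 0.054 to 0.24 for Dbi and 0.056 to 0.25 for Fgf10. Both also lost their call with the replicate number as a block (Dbi 0.055, Fgf10 0.058), with no filter (Dbi 0.055, Fgf10 0.058) and with only the groups compared (Dbi 0.057, Fgf10 0.065). With repeated quantile normalization Dbi did not pass by limma (0.59, adjusted p = 0.052). In the mean of its probe sets Acsl4 did not pass either (1.49, adjusted p = 0.06).

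Transcripts of other cell types were read beside these results, because Fabp4, Lpl, Cd36 and Pparg are also used by endothelium, macrophages or adipocytes. Of 12 capillary endothelial markers, 8 were tested and 2 were higher and 2 lower in bright cells, with Tek at 2.89 ± 0.19 and Egfl7 at -0.34 ± 0.12, whose call was lost without any 1 of 9 arrays. This share is near the 47.8% of all genes. Cdh5, picked here after its value was seen, was the other lower one at -1.05 ± 0.34, and Car4 at -1.12 ± 0.44 did not pass (adjusted p = 0.064), except with repeated quantile normalization (-1.21, 0.045) or without bright PNX replicate 2 (-1.32, 0.047), bright PNX-dnFGFR replicate 1 (-1.53, 0.0069) or dim SHAM replicate 2 (-1.38, 0.037). Their mean over the 12 named markers was 5.09 to 5.59 on bright and 5.00 to 5.87 on dim arrays. Gpihbp1, which anchors lipoprotein lipase on capillaries, Cldn5, Emcn and Ednrb did not pass the filter. The lower count was 0 to 3 with 1 array left out, and moved by over 1.5 times without any array but bright PNX replicate 2, dim PNX replicate 2, bright PNX-dnFGFR replicate 1 and dim SHAM replicate 1. The higher count was 1 without bright or dim PNX-dnFGFR replicate 1 or bright SHAM replicate 2.

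Of 14 alveolar macrophage markers, 1 was higher (Ctsk at 1.96 ± 0.29, a protease gene that fibroblasts also use) and 2 lower, among them Lyz2 at -0.62 ± 0.22, whose call was lost without any 1 of 9 arrays. Chil3 at -0.54 ± 0.34 did not pass (adjusted p = 0.21), except without bright PNX replicate 2 (-0.88, 0.013). Car4 is on this list as well. The called macrophage markers were a smaller share than over all genes, where 28.5% were higher and 19.3% lower. The mean over this list was 6.02 to 6.80 on bright and 6.05 to 7.44 on dim arrays. In dim cells it was 6.57 and 6.82 in PNX-dnFGFR, 6.49 and 6.22 in PNX and 7.44 and 6.05 in SHAM. In each dim pair the replicate with the higher mean also had the higher Lpl. The same held in bright PNX and bright SHAM, but not in bright PNX-dnFGFR. This was read after the values were seen and was not tested. The lower count was 4 without dim SHAM replicate 2, and 1 without any other array except bright PNX replicate 1, bright PNX replicate 2, dim PNX replicate 2 and bright PNX-dnFGFR replicate 1. Of 11 tested alveolar epithelial markers, 1 was higher (Pdpn at 3.82 ± 0.11, which stromal cells also use) and 1 lower (Hopx at -2.20 ± 0.13), and the surfactant protein gene Sftpc was at 11.36 to 12.06 on bright and 11.58 to 12.43 on dim arrays (-0.28 ± 0.13, adjusted p = 0.11; -0.39 and 0.019 without dim PNX replicate 2). Sftpa1 had -0.32 ± 0.32 (adjusted p = 0.44). Ager, of type I cells, had -0.62 ± 0.23 (adjusted p = 0.055), and passed without bright PNX replicate 2 (-0.71, 0.048), dim PNX replicate 2 (-0.79, 0.020) or dim SHAM replicate 2 (-0.80, 0.013), with the stricter filter (0.046), repeated quantile normalization (-0.67, 0.036) and a variance trend (0.039). The mean of the epithelial markers was 7.19 to 7.86 on bright and 7.11 to 7.93 on dim arrays. Called epithelial markers were also a smaller share than the 47.8% of all genes called in either direction. The higher count was 2 without dim SHAM replicate 1. The lower count was 2 without bright PNX replicate 2 or dim SHAM replicate 2, and 3 without dim PNX replicate 2.

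Of 9 named adipocyte markers, 5 were below the filter on all 12 arrays, among them Adipoq, which encodes adiponectin, at 2.90 to 4.38 on bright and 3.01 to 3.92 on dim arrays, and Lep, which encodes leptin, at 3.06 to 3.58. Of the 4 tested, 2 were lower in bright cells and 0 higher, where 19.3% of all genes were lower and 28.5% higher. The lower ones were Slc36a2 at -1.38 ± 0.13 and Thrsp at -0.68 ± 0.16, while Car3 at -0.10 ± 0.18 did not pass (adjusted p = 0.68). The mean of the 9 markers was 4.35 to 4.66 on bright and 4.78 to 4.90 on dim arrays, lower on each bright array, as Plin2, Dgat1, Dgat2, G0s2, Lipe and Pparg were. That mean takes in the 5 markers below the filter, and Slc36a2 had the largest difference of the 4 tested. The part of these cell types in the results was not tested.

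Other transcripts also set the bright PNX replicates apart. Fabp5, a related binding protein, had 8.54 and 8.77 in bright PNX-dnFGFR, 8.89 and 7.13 in bright PNX and 8.02 and 6.83 in bright SHAM cells. The endothelial receptor gene Kdr had 6.48 and 8.06 in bright PNX-dnFGFR, 7.58 and 5.24 in bright PNX and 5.44 and 6.82 in bright SHAM cells. Bright PNX replicate 1 was above replicate 2 in Fabp4, Fabp5 and Kdr, while G0s2 and Pparg were lower in replicate 1. In the bright SHAM pair Kdr was lower in replicate 1, where Fabp4 was higher. Its gate difference of 0.62 ± 0.45 did not pass (adjusted p = 0.27), except without bright PNX replicate 2 (1.01, adjusted p = 0.049). The mean of the endothelial markers was 5.25 and 5.28 in the bright PNX pair. Fabp5 and Kdr were picked here after their values had been seen.

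**Figure D5:**
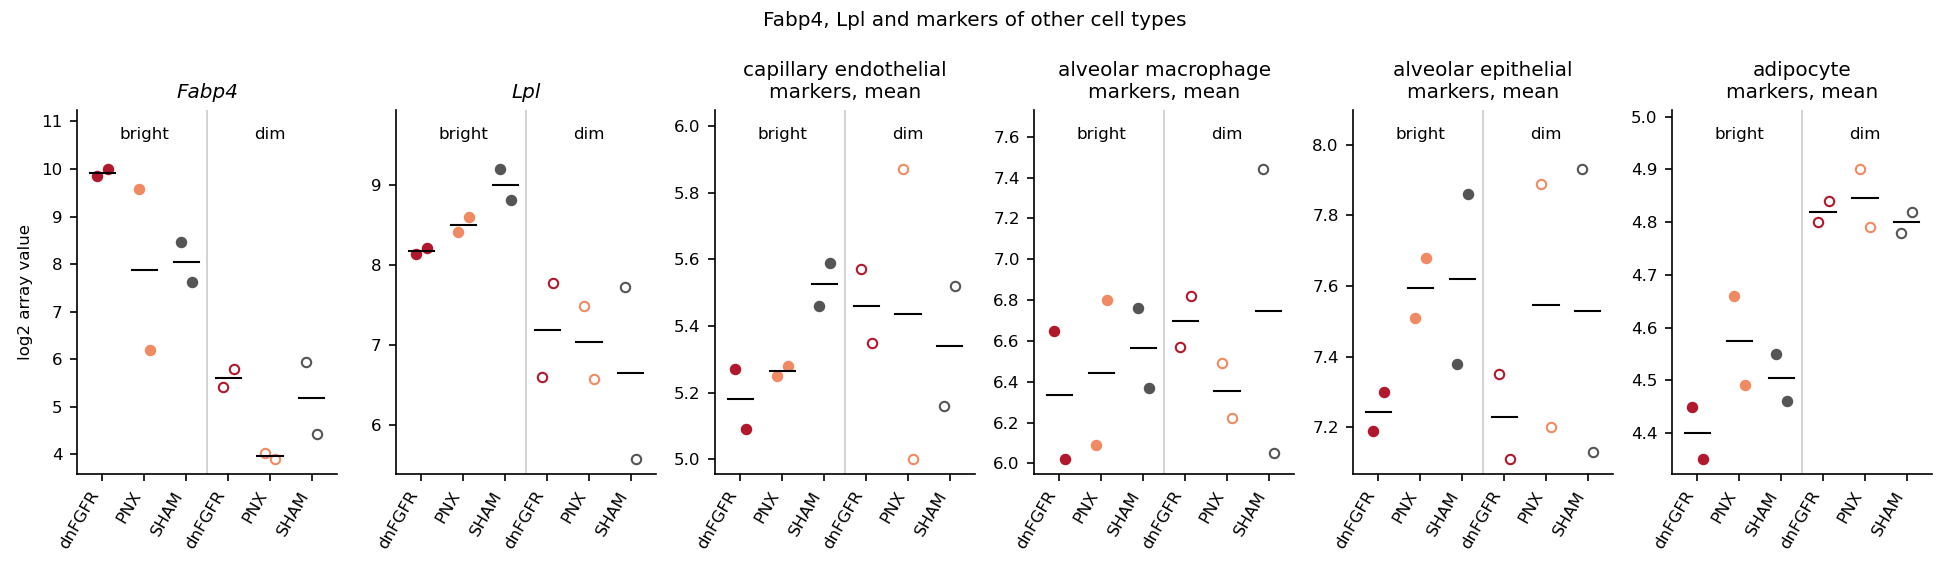
Log2 array values of Fabp4 and Lpl and the mean log2 value of 4 marker lists of other cell types on the 12 arrays (filled points bright, open points dim; dnFGFR stands for PNX-dnFGFR; black lines are means of 2 arrays; each panel has its own scale that does not start at 0). Fabp4 and Lpl separate the gates, the endothelial, macrophage and epithelial means overlap, and the adipocyte mean is lower on the bright arrays.

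The tested genes whose profile over the 12 arrays was most like that of a lipid storage gene were found by the root mean square difference of centred log2 values. The values were not scaled, so this distance grows with a gene's own spread and cannot be compared between lipid storage genes. Nearest to Plin2 were Lpgat1 (0.172) and Ptk7 (0.190), and Lpgat1 (0.186) was also second to Syt6 (0.178) for Lipe. Plin2 and Lipe were each other's nearest within the 10 genes, at 0.216, which placed Lipe at rank 11 for Plin2 and Plin2 at rank 8 for Lipe among all tested genes. Nearest to G0s2 were Nebl (0.134) and Tcf21 (0.180). Dgat2 was nearest to Chst2 (0.282) and Dipk2a (0.315), with G0s2 at rank 10 (0.386). Pparg was nearest to Ppp1r14a (0.295) and Cacna1d (0.297), with G0s2 at rank 13 (0.372). Dgat1 was nearest to Atrn (0.083) and Vps13b (0.096), and Pnpla2 to Sox5 (0.317) and Utp14b (0.318). Lpl was nearest to Cd9 (0.348) and Id2 (0.368), and Fabp4 to Marcksl1 (0.602) and Chl1 (0.627). All these profiles share the gate difference, which was found in 47.8% of the tested genes.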

How the data were processed

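The deposited values are log2 signals of 12 Affymetrix arrays, made with RMA per the submitters' processing notes; no label or header gives the RMA software's release or settings. RMA corrects background, makes the array distributions equal and summarises probes, so a shift of all genes together cannot be seen. Values were used as deposited. Of 45141 probe sets, 104 controls were left out; 28898 had 1 annotated gene, 551 several and 15588 none, and 28689 of those with 1 gene were matched to RefSeq symbols by Entrez identifier. The probe set with the highest mean stood for a gene (7180 of 17097 genes had more than 1). Genes that exceeded log2 5.101 on 2 or more arrays were tested (11073); that level is the median over all probe sets and arrays.

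R 4.3.3 and limma 3.58.1 fitted a linear model of 6 group means to all 12 arrays, which left 6 residual degrees of freedom besides 3.31 prior ones. Moderated p-values were given Benjamini-Hochberg adjustment across the tested genes, separately for each comparison. The threshold was an adjusted p below 0.05. The fit was also run on simulated data with independent noise and few changed genes. That setting is unlike the gate comparison, and no result here rests on it. SE is from the fit. The 10 genes and all lists were chosen with earlier results of these data known, so patterns already seen are not independent support. Named genes are the 10, up to 4 passing genes per lipid list and comparison with the smallest adjusted p, 3 genes of each cell type list with the highest mean and its passing one with the largest gate difference, and the 2 nearest profiles; other genes named were picked after their values were seen. As alternatives, the filter was dropped or raised to log2 6.762, values below the filter were set to it, quantile normalization was repeated, probe sets of a gene were averaged, a variance trend was used, the fit was limited to the groups compared, the replicate number was a block, and each of the 12 arrays was left out. Figures were drawn with matplotlib 3.10.9.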

Additional observations from a re-analysis of the deposited data

How the results depend on the processing

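Of 28 differences of the 10 genes that passed, 548 of 578 alternative fits kept direction and call, 30 kept direction and lost the call, and 0 turned. Of 132 that did not pass, 35 of 2724 alternative fits passed. Many of the alternative fits left out an array outside the groups compared. That changes the p-value but not the difference, so the direction could not turn there. The count of genes that passed moved by over 1.5 times in these cases, whose causes were not tested beyond fewer arrays where one was left out. For PNX against SHAM over both gates it was 1 with the mean of probe sets, against 0. For PNX-dnFGFR against PNX in bright cells it was 1 with the stricter filter or a variance trend, 2 with values held at the filter and 0 to 3 with 1 array left out, against 0; over both gates it was 0 to 3 with 1 array left out. For PNX-dnFGFR against SHAM in bright cells it was 2 with only the groups compared and 0 to 2 with 1 array left out, against 1; over both gates it was 1 with only the groups compared and 0 to 1 with 1 array left out, against 0. The difference between the gates had 0 to 1 with 1 array left out for PNX-dnFGFR against SHAM and against PNX. A fit with only the groups compared was the main fit itself where all 6 groups entered.

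Deviations of bright and dim arrays of the same replicate number correlated at 0.128 in PNX-dnFGFR, 0.003 in PNX and 0.005 in SHAM across genes. These low values cannot decide whether such arrays came from the same animals, because the spread between samples could hide shared animals. Over all pairs of groups the correlation ran from -0.185 to 0.347, highest between bright PNX-dnFGFR and bright SHAM (0.347) and between bright PNX and bright SHAM (0.288), with bright PNX-dnFGFR and bright PNX at 0.065. With the number as a replicate block, 8 genes passed for bright against dim over the 3 conditions (9 without it), Pnpla2 being the one lost (adjusted p = 0.06), and 6 in SHAM (5 without it); the block within condition left 9 and 5. The number of arrays, and values near the filter for Pnpla2, Cd36 and dim Fabp4, limit the precision.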
